A study of Mus musculus with 6 samples.

Results

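The later stage of depletion of the histone chaperone CAF-1 was examined in cultured mouse granulocyte-macrophage progenitors, as the change from 48 to 96 h after a short hairpin RNA against Chaf1b was switched on. The cells are Lys-GFP-ER-HoxA9 cells of strain C57BI/6, in which bone marrow progenitors are held in self-renewal by HOXA9 fused to the ligand-binding domain of a mutant estrogen receptor (iGMPs), and they also carry a GFP reporter for lysozyme expression. All cells of the CAF-1 OFF arm, the uninduced ones included, carry the IPTG-inducible hairpin and grew with stem cell factor and 150 ng/ml estradiol, so HOXA9 stayed active throughout. The 48 and 96 h cultures also received 500 µM IPTG, and the 0 h culture did not. The hairpin line is clonal, and no control-hairpin culture with IPTG was among the libraries, so an effect of IPTG itself cannot be told apart from an effect of the knockdown. The other arm of the series (HOXA9 OFF) holds cells with a control hairpin, kept in the same estradiol at 0 h and sampled 48 and 96 h after it was withdrawn. The members were the barcodes that the labels assign to CAF-1 OFF at 48 and 96 h with 200 to 6000 genes and at most 10% of their molecules from the mitochondrial genome. They were 927 cells at 48 h and 911 at 96 h, 1838 of the 5872 cells of the series.

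CAF-1 places new histone H3 and H4 on DNA just after the replication fork has passed. Chaf1a and Chaf1b are its larger subunits, and it is known for guarding cell identity, since loss of it can open genes of other cell fates. Granulocyte-macrophage progenitors are the bone marrow cells that give rise to neutrophils and monocytes; platelets come from megakaryocytes, and mast cells, basophils and eosinophils from neighbouring branches of blood formation.

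Transcripts were counted by single-cell RNA-seq that reads the 3′ end of each molecule (10x Chromium) and tags it with a molecular identifier (UMI). The UMIs of the kept cells were summed per library to 5589486 UMIs at 48 h and 5394352 at 96 h, and each gene is given as its count per 1000000 UMIs of the library (CPM). The median cell held 5998 UMIs at 48 h and 5956 at 96 h, so both times were read at nearly the same depth. The filter removed 18.3% of barcodes at 48 h and 14.5% at 96 h, against 41.7% at 0 h. All exceeded the limit on mitochondrial UMIs, and 82 of 208 at 48 h and 2 of 155 at 96 h also had under 200 genes. The median mitochondrial share of the kept cells was 5.47% and 5.81%. Of the kept cells, 3 carried a barcode sequence present in both libraries. With 1 library a time point, no test between times was possible: folds carry 95% intervals for counting error only, and the spread between cultures was not measured.

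Chaf1b stood at 35.6, 3.22 and 6.49 CPM at 0, 48 and 96 h. Both induced libraries lay far below the uninduced one, and the level at 96 h, from 35 UMIs against 18, was 2.01-fold higher at 96 h than at 48 h (95% interval 1.11 to 3.78). The other large subunit, Chaf1a, stood at 32.7, 29 and 23 CPM. All 8 markers of the labelled progenitor type had UMIs at 96 h, though Kit, Flt3 and Sox4 were lower than at 48 h. Mpo, a peroxidase, and the proteases Ctsg and Prtn3, all of the first granules that a neutrophil precursor makes, were at 2415, 5951 and 1874 CPM, and the stem cell antigen Cd34 was at 707 CPM. Markers of a mature granulocyte were low: Ltf and Ly6g were at 0 UMIs at 96 h, and S100a8 and S100a9 were at 22.4 and 2.22 CPM. The 10 markers of that stage summed to 602 and 777 CPM at 48 and 96 h, of which the collagenase gene Mmp8 made up 582 and 724 CPM. Of 7 genes of non-blood tissues, 0 had a UMI at 96 h.

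The stretches just before the start sites of Pf4 and Hmgcs1 are shown because Pf4 has the largest level change of the platelet genes and Hmgcs1 is the gene of cholesterol synthesis that passed 2-fold, both described further on. They are the 250 bases before each start in the RefSeq annotation of GRCm38.p6, the build of the counts, and both lie on the plus strand, Pf4 at chr5:90772185-90772434 and Hmgcs1 at chr13:119690101-119690350. Capitals mark matches, on either strand, to CCAAT (read as ATTGG on the other strand) and, in Hmgcs1, to the sterol response element letters TCACNCCAC, which were added after the fall of Hmgcs1 was known.
Pf4: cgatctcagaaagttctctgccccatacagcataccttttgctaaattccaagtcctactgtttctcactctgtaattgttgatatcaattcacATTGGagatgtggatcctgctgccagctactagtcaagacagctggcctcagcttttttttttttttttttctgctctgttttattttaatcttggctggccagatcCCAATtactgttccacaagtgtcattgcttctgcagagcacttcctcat
Hmgcs1: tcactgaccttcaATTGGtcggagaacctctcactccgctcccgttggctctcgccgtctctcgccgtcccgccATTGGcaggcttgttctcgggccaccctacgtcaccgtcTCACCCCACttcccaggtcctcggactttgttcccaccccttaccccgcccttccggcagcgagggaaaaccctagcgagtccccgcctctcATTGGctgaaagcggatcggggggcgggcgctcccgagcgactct
Pf4 held 2 matches to CCAAT, and a match to the GATA factor letters AGATAA lay beyond the printed stretch, at bases 37 to 42 counted from the start. Hmgcs1 held 3 matches to CCAAT in the printed stretch and its sterol match at bases -137 to -129. Over windows from 250 bases before to 50 after the start, CCAAT was found in 41.1% of 27025 genes, AGATAA in 12.7% and the sterol letters in 1.44%. A match describes the letters and shows no binding.

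In all, 4771 genes averaged 20 CPM or more across the 48 and 96 h libraries. At 96 h 41 of them (0.859%) were higher by 2-fold or more and 8 (0.168%) lower by 2-fold or more, on the log2(CPM + 10) scale, which understates the change of low genes. At 1.5-fold the counts were 162 (3.4%) and 74 (1.55%). At the 2-fold size, the first 48 h had given 107 genes (2.27%) higher and 2 (0.0424%) lower of 4715. The 2 uninduced libraries, from different clones, differed by 2-fold or more in 40 genes of 4580. Of these, 35 (0.764%) were higher and 5 (0.109%) lower in the HOXA9 OFF arm. The late 2-fold counts are therefore of the size seen between clones with no induction, and they are read here gene by gene. Each interval's log2 ratios had a root mean square of 0.302 for the late interval, 0.428 for the first 48 h and 0.252 between the uninduced clones. The median gene moved by -0.07 between 48 and 96 h, and the medians of gene lists are read against that value.

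**Figure D1:**
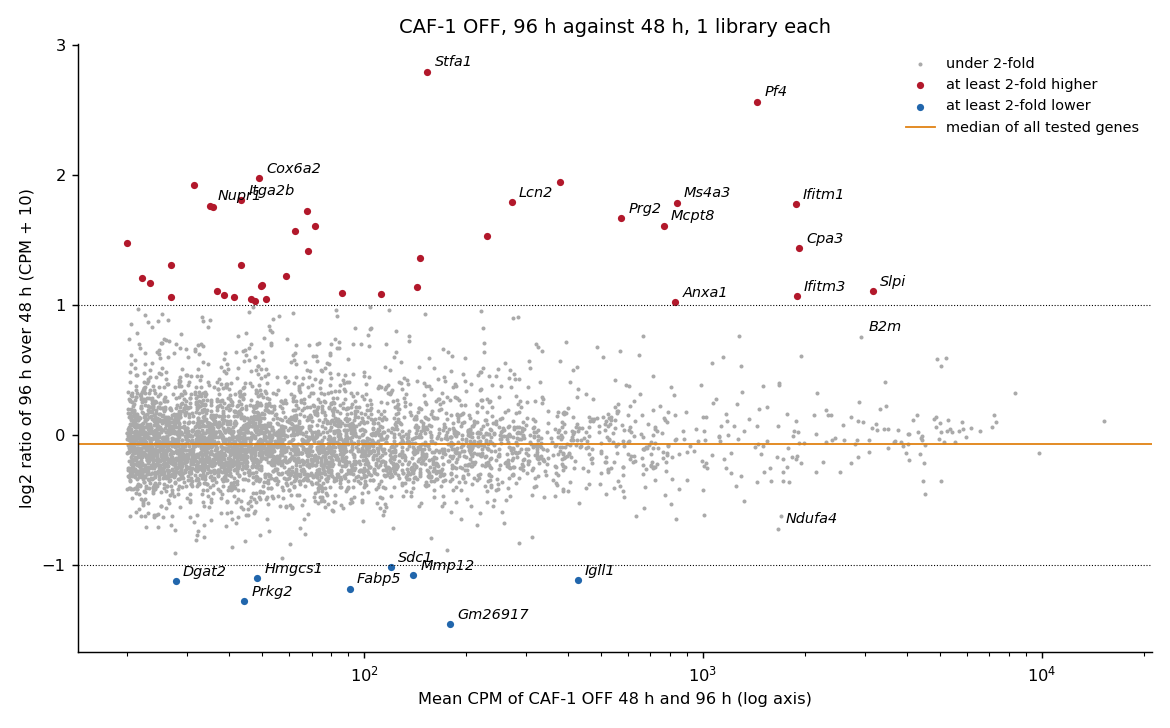
Each point is 1 of the 4771 genes, placed by its mean CPM over the CAF-1 OFF 48 and 96 h libraries (log axis) and its log2 ratio of 96 h over 48 h after adding 10 CPM; dotted lines mark 2-fold and the orange line the median gene. The 41 red points include abundant genes such as Pf4, Ifitm1, Cpa3 and Slpi, whereas the 8 blue points, Igll1 the most abundant of them, lie further to the left than these 4.

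Most late rises went on from a rise that had begun before 48 h. Of the 41, 28 were already at least 2-fold higher at 48 h than at 0 h, 7 were between 1.5- and 2-fold higher, 5 had moved by less than 1.5-fold and 1, Cox6a2, had fallen. Looked at from the early side, of 107 genes that had risen 2-fold or more by 48 h, 45 rose by at least 1.5-fold again, 59 stayed within 1.5-fold and 3 fell by at least 1.5-fold. The comparisons before and after 48 h share the 48 h library, so counting error in it moves a gene in opposite directions in both.

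Genes of megakaryocytes and platelets gave the largest fold rise in summed CPM of the 47 lists with a UMI, and the rise was narrow. A higher sum alone does not tell more cells with a transcript from more of it per cell; shares of cells are given further on. Pf4 (chr5:90772435-90773383, GRCm38.p6), a chemokine of platelet granules, was at 22.3, 412 and 2481 CPM at 0, 48 and 96 h. It was 6.03-fold higher at 96 h than at 48 h (95% interval 5.77 to 6.3). Itga2b (chr11:102453297-102469883), the platelet fibrinogen receptor subunit also known as CD41, stood at 3.56, 13.8 and 73 CPM and was 5.3-fold higher at 96 h than at 48 h (95% interval 4.14 to 6.86). Gp9, a subunit of the receptor for von Willebrand factor, was at 19.5, 73.4 and 132 CPM, 1.8-fold (1.59 to 2.03) higher. The list of 14 megakaryocyte genes went from 554 to 2763 CPM in sum, 4.98-fold (95% interval 4.79 to 5.18) higher, with 2 members at least 2-fold higher, 0 at least 2-fold lower and a median log2 ratio of 0.17 over the 11 members with a UMI. Of the 96 h sum, 2481 CPM were Pf4. Other defining genes of the lineage were absent or nearly so: Gp6, Rab27b and Gp1bb were at 0 UMIs in both libraries, which at 96 h allows a level of up to 0.556 CPM (3 UMIs), and Vwf, the platelet adhesion factor, was at 0.556 CPM at 96 h. Fli1, a transcription factor of the lineage, was at 26.1, 35.6 and 41.3 CPM.

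Granule genes of mast cells, basophils and eosinophils were higher at 96 h too, again a few strongly and most others little. Cpa3, a carboxypeptidase of mast cell granules, was at 209, 1035 and 2813 CPM and Mcpt8, a basophil protease, at 40.1, 373 and 1159 CPM. The late folds were 2.72-fold (2.64 to 2.8) and 3.11-fold (2.96 to 3.27). The 11 mast cell and basophil genes went in sum from 1469.7 to 4052 CPM, 2.76-fold (95% interval 2.69 to 2.83) higher, with 2 of the 9 members with a UMI at least 2-fold higher and a median log2 ratio of 0.28. The receptor and tryptase genes that define mature cells stayed low: Fcer1a, a subunit of the IgE receptor, was at 0.371 CPM at 96 h, and Mcpt4 and Tpsb2 were at 0 UMIs. Gata2, a transcription factor of mast cells and basophils, was at 27, 38.8 and 43.9 CPM. Prg2, the eosinophil major basic protein, was at 141, 269.6 and 879 CPM, 3.26-fold higher at 96 h than at 48 h (95% interval 3.07 to 3.46), and its relative Prg3 at 74.7, 189 and 362 CPM. Epx, the eosinophil peroxidase, and Ear1, Ear2 and Ear6, ribonucleases of eosinophils, were at 0 UMIs at 96 h. The uninduced clones already differed in these genes: the eosinophil list summed to 228 CPM in the CAF-1 OFF arm and 1481 CPM in the HOXA9 OFF arm at 0 h, and the mast cell and basophil list to 288 and 839 CPM.

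**Figure D2:**
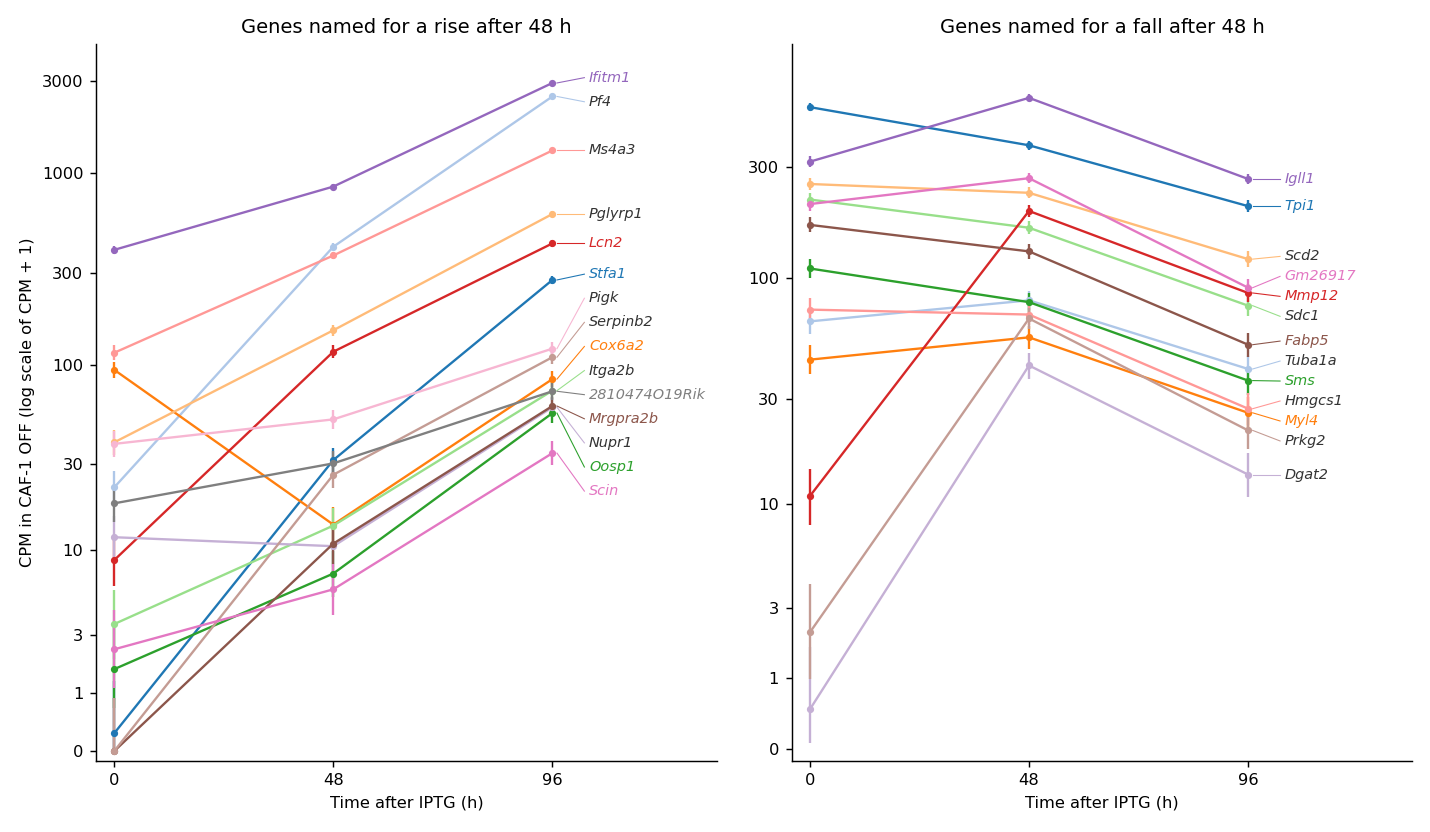
CPM (log scale of CPM + 1) in the CAF-1 OFF libraries at 0, 48 and 96 h, 1 line a gene, with exact 95% Poisson intervals as bars; left, genes named for a rise after 48 h, right, genes named for a fall. Pf4 climbs from 22.3 to 2481 CPM, Cox6a2 dips at 48 h and returns, and Mmp12, Prkg2 and Dgat2 peak at 48 h.

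Genes of the first neutrophil granules were higher together, and among later granule genes only some were. All 10 members of the primary granule list had a log2 ratio above 0, with a median of 0.46 against -0.07 for all genes. At least 1.5-fold higher were 4, against 3.4% of the 4771 genes, and at least 2-fold 1, against 0.859%. The member past 2-fold was Ms4a3, a membrane protein that marks granulocyte-monocyte progenitors and their offspring and not itself a granule protein. It was at 115, 371 and 1302 CPM, 3.51-fold higher at 96 h than at 48 h (95% interval 3.34 to 3.69). Elane, the neutrophil elastase, was at 129, 913 and 1386 CPM, 1.52-fold (1.46 to 1.57) higher. Of the secondary and tertiary granule genes, Lcn2, which binds bacterial iron carriers, went through 8.78, 117 and 428 CPM and was 3.67-fold higher at 96 h than at 48 h (95% interval 3.36 to 4.01). Pglyrp1, which binds bacterial cell wall, was at 38.9, 151 and 609 CPM, 4.03-fold (3.73 to 4.35) higher. Mmp8, the neutrophil collagenase, was at 24.2, 582 and 724 CPM, and Camp, the cathelicidin of mature neutrophils, stood at 4.26 CPM at 96 h. For scale, the 14 genes of secondary and tertiary granules summed to 36.5, 880 and 1356 CPM in CAF-1 OFF at 0, 48 and 96 h. In HOXA9 OFF at 96 h the sum was 160416 CPM. The sum thus rose after CAF-1 loss and stayed far below that level.

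Protease inhibitors more familiar from skin and mucosa formed a further group. Slpi, a secreted inhibitor of elastase, was at 141, 2016 and 4342 CPM, 2.15-fold higher at 96 h than at 48 h (95% interval 2.11 to 2.2), and had the highest level of the 41 genes at 96 h. Serpinb2, an inhibitor of plasminogen activators, was at 0, 26.1 and 109 CPM, 4.19-fold higher at 96 h than at 48 h (95% interval 3.49 to 5.05). Tgm3, a transglutaminase of skin and hair, was at 0.949, 114 and 348 CPM, 3.05-fold (2.79 to 3.34) higher. Of this list of 10, 3 were at least 2-fold higher and 0 lower, with a median log2 ratio of 0.50 and a sum that was 2.22-fold (95% interval 2.17 to 2.27) higher. Stfa1 (chr16:36277148-36285371), a stefin that inhibits cysteine cathepsins, had the largest ratio of the 4771 genes: 0.237, 31.3 and 277 CPM, 8.83-fold higher at 96 h than at 48 h (95% interval 7.55 to 10.4). It has near-identical copies, BC100530 at 23.9 CPM and Gm5483 at 0.371 CPM at 96 h, so its level is uncertain for the single gene.

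Some interferon-inducible genes and genes of class I antigen presentation were higher at 96 h. Ifitm3, a membrane protein that blocks virus entry, was at 403, 1220.0 and 2567 CPM, 2.1-fold (2.04 to 2.17) higher, and its neighbour Ifitm1, which resembles it in sequence, at 396, 845 and 2916 CPM, 3.45-fold (3.34 to 3.56). Usp18, a brake on interferon signalling, was at 1.19, 11.3 and 42.6 CPM, 3.78-fold higher at 96 h than at 48 h (95% interval 2.85 to 5.08), and the antiviral gene Oasl2 at 0.475, 8.95 and 30.4 CPM. These antiviral genes started from near 0. Of the 12 interferon genes, 3 were at least 2-fold higher and 0 at least 2-fold lower, 5 were at least 1.5-fold higher, and the median log2 ratio was 0.42. Of the 14 antigen presentation genes, 0 were at least 2-fold and 4 at least 1.5-fold higher, with a median of 0.18. Over the 4771 genes, 0.859% were at least 2-fold and 3.4% at least 1.5-fold higher, and the median was -0.07. Isg15, a ubiquitin-like modifier, reached 33.2 CPM and Ifit3 only 0.742 CPM. B2m, the light chain of class I molecules, was at 1429.6, 2177 and 3679 CPM, 1.69-fold (1.65 to 1.73) higher, and the heavy chains H2-D1 and H2-K1 were 1.7-fold (1.64 to 1.76) and 1.57-fold (1.5 to 1.66) higher. Their copies are close in sequence, so the split among class I genes is uncertain. Genes of class II were far lower, with H2-Aa at 0, 7.87 and 14.1 CPM and its chaperone Cd74, the invariant chain, at 0, 1.79 and 8.9 CPM.

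Among the rest of the largest rises, Cxcl3, a chemokine that attracts neutrophils, was at 0, 32.7 and 104 CPM, and Mrgpra2b, a receptor of a family with near-identical copies and uncertain for that reason, at 0, 10.9 and 60.6 CPM. Anxa1, an annexin that damps inflammation, was at 109.9, 545 and 1114 CPM and Fcnb, a ficolin of granulocyte precursors, at 3.32, 34.7 and 69.9 CPM. All 4 were already higher at 48 h than at 0 h.

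A short list of genes rose by 2-fold or more only after 48 h. Of 4771 genes, 5 (0.105%) rose at least 2-fold after 48 h having moved by less than 1.5-fold before, on the log2(CPM + 10) scale. Without the added 10 CPM, Oosp1 was 4.42-fold, Scin 2.49-fold and 2810474O19Rik 1.65-fold higher at 48 h than at 0 h. Oosp1, named for its expression in the oocyte, was at 1.66, 7.34 and 55.6 CPM, 7.58-fold higher at 96 h than at 48 h (95% interval 5.46 to 10.8). Nupr1, a stress-induced nuclear protein, was at 11.9, 10.6 and 59.7 CPM, 5.66-fold higher at 96 h than at 48 h (95% interval 4.27 to 7.6). Scin, an actin-severing protein of the gelsolin family, was at 2.37, 5.9 and 34.1 CPM. Pigk, the catalytic subunit of the complex that attaches GPI anchors, was at 38.2, 51.5 and 121 CPM and the last, 2810474O19Rik, at 18.3, 30.1 and 72.5 CPM. Pigk and 2810474O19Rik lay just past the size, with log2 ratios of 1.09 and 1.04, and the others between 1.47 and 1.92.

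Cox6a2, the heart and muscle form of a cytochrome oxidase subunit, followed a course of its own: 94, 14 and 84 CPM. It fell by 48 h and at 96 h was again within reach of its uninduced level, 6.02-fold higher at 96 h than at 48 h (95% interval 4.72 to 7.75). Trib3, a pseudokinase induced by ATF4, had the same shape at 26.6, 4.83 and 23.7 CPM. Of the 14 genes of the ATF4 and amino acid response, 12 had a log2 ratio above 0, with a median of 0.29 after -0.21 before 48 h. The median gene was at -0.07 after 48 h and 0.01 before. Atf5 went through 75, 58.7 and 101 CPM and Asns, the asparagine synthetase, through 83.3, 54.6 and 81.2 CPM.

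Large falls that came only after 48 h were few. At least 2-fold falls after 48 h with less than 1.5-fold change before were seen for 4 of 4771 genes (0.0838%): Gm26917, Fabp5, Hmgcs1 and Sdc1. Fabp5 and Sdc1 were already lower at 48 h than at 0 h, by less than 1.5-fold. Hmgcs1 (chr13:119690351-119708260), which makes the HMG-CoA for cholesterol synthesis and whose promoter is printed above, was at 73.1, 69.6 and 27.1 CPM, 2.57-fold lower at 96 h than at 48 h (95% interval 2.12 to 3.13). Fabp5, a fatty acid carrier, was at 169, 130.1 and 51.5 CPM, 2.52-fold lower at 96 h than at 48 h (95% interval 2.2 to 2.91). Sdc1, a heparan sulfate proteoglycan of the cell surface, was at 217, 164 and 76 CPM, 2.16-fold (1.92 to 2.43) lower. Gm26917, an annotated long non-coding RNA, was at 207, 267 and 90.8 CPM, 2.94-fold lower at 96 h than at 48 h (95% interval 2.66 to 3.27).

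The genes of cholesterol synthesis were lower together after 48 h. All 15 members had a log2 ratio below 0, and all 15 lay below the median gene. The list median was -0.54 against -0.07 for all genes, and before 48 h it had been -0.05. Its sum was 839, 819 and 511 CPM, 1.6-fold (95% interval 1.53 to 1.68) lower at 96 h than at 48 h. Single genes moved little: 1 member passed 2-fold and 4 passed 1.5-fold. Insig1, which holds the sterol-sensing machinery in the endoplasmic reticulum, was at 42.5, 45.3 and 22.1 CPM. Cyp51, the sterol demethylase, was at 70.9, 68.2 and 36.9 CPM. The path from early to late enzymes shared the direction, with Idi1, which forms the isoprene unit, at 67.9, 71.7 and 45.6 CPM and Msmo1, a late sterol oxidase, at 104, 106 and 68.2 CPM. Scd2, a fatty acid desaturase outside this list, was at 253, 232 and 120.5 CPM, 1.92-fold (1.75 to 2.12) lower.

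**Figure D3:**
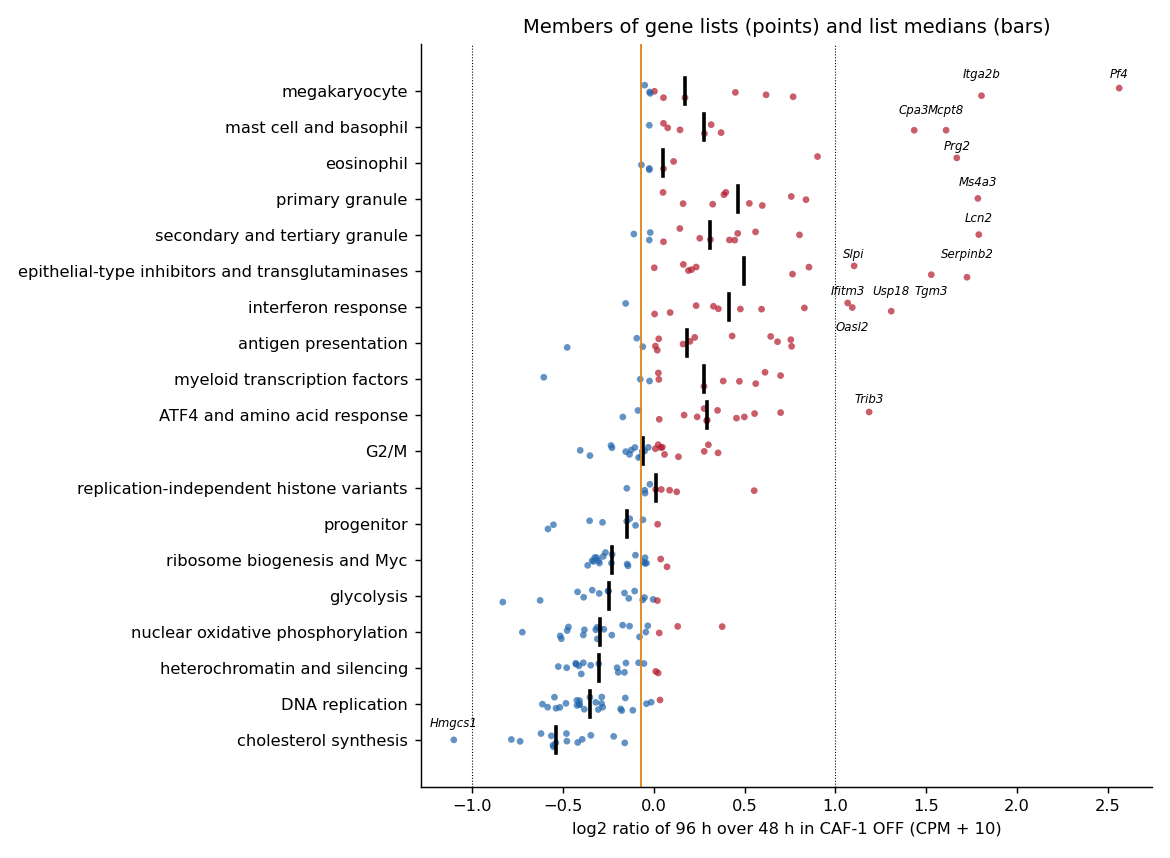
Each point is a gene of a list (red above 0, blue below), placed by its log2 ratio of 96 h over 48 h in CAF-1 OFF (CPM + 10); black bars mark list medians, the orange line the median of all 4771 genes and dotted lines 2-fold. The bar of cholesterol synthesis is at -0.54 with all points below 0, and the megakaryocyte and mast cell lists hold most points near 0 with Pf4, Itga2b, Mcpt8 and Cpa3 far to the right.

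Another 3 genes rose by 48 h and then fell. Prkg2, a cGMP-dependent kinase, was at 2.14, 66.9 and 21.7 CPM, 3.08-fold lower at 96 h than at 48 h (95% interval 2.5 to 3.83). Dgat2, which completes triglyceride synthesis, was at 0.475, 41.9 and 13.7 CPM, 3.05-fold (2.34 to 4.02) lower. Mmp12, the macrophage elastase, was at 10.9, 194 and 86.2 CPM, 2.25-fold (2.01 to 2.51) lower. Igll1, part of the surrogate light chain of early B cells, had the same shape with a smaller first step, 315, 589 and 265 CPM, 2.22-fold lower at 96 h than at 48 h (95% interval 2.08 to 2.36). At 96 h Prkg2, Dgat2 and Mmp12 were above their 0 h levels and Igll1 was below its own. The other genes named for a large fall were Sms, the spermine synthase, at 109.9, 78.7 and 36 CPM, Myl4, an atrial myosin light chain, at 44.4, 55.5 and 26 CPM, and Tuba1a, a tubulin, at 65, 80.2 and 40.4 CPM.

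Below the 2-fold size, most genes of DNA replication were slightly lower at 96 h, and genes of mitosis as a list were not. Of 25 DNA replication genes, 24 had a log2 ratio below 0, 22 lay below the median gene (-0.07) and 2 were at least 1.5-fold lower. The list median was -0.35 after -0.02 in the first 48 h. Rrm1, a subunit of the enzyme that makes deoxynucleotides, was at 147, 139.9 and 89.9 CPM, and Mcm5, of the replicative helicase, at 99.7, 103 and 67.7 CPM. The sum of the list was 1.24-fold (95% interval 1.22 to 1.27) lower. For the 22 G2/M genes the median log2 ratio was -0.06, near that of all genes. Of them, 9 were above 0 and 9 below the median gene, and their sum was 1.03-fold its 48 h value. Mki67 was at 59.3, 72.3 and 52.1 CPM and Cks2, which binds the mitotic kinase, at 420.5, 374 and 481 CPM.

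Genes of silent chromatin lay slightly below the median gene, and none by a large step. Of 17 heterochromatin and silencing genes, 15 had a log2 ratio below 0, 14 lay below the median gene and 0 were at least 1.5-fold lower. The list median was -0.30. Cbx5, the heterochromatin protein HP1 alpha, was at 103, 88 and 58 CPM and the maintenance methyltransferase Dnmt1 at 49.8, 51.9 and 36 CPM. CAF-1 and other histone chaperones had a median of -0.21, and in the replication-independent histone variants it was 0.01. H3f3b, which encodes the variant H3.3 used outside replication, was higher from 48 h on, at 1948, 5791 and 5956 CPM. Asf1b, which hands H3 and H4 to CAF-1, was at 89.7, 119.9 and 144 CPM. Most histone genes give transcripts without a poly(A) tail, and near-identical copies, so their counts were not used one by one.

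Genes of energy supply and ribosome assembly were lower by similar small steps, and the ribosomal proteins themselves were level. The median log2 ratio was -0.30 for nuclear genes of oxidative phosphorylation, -0.25 for glycolysis and -0.23 for ribosome biogenesis, against 0.02 for cytosolic ribosomal proteins and 0.03 for the mitochondrial genome. Tpi1, the triose phosphate isomerase, went from 538 to 369.6 to 203 CPM, Ldha, the lactate dehydrogenase, through 1028, 773 and 497 CPM, and Ndufa4, a respiratory chain subunit, through 2579, 2079 and 1254 CPM. Npm1, a nucleolar chaperone, was at 3022, 2026 and 1571 CPM. All 4 were lower at each later time. The 2-fold falls counted from 0 h came about in the same gradual way. From 0 to 96 h, 42 of 4683 genes (0.897%) were at least 2-fold lower, of which 1 had reached 2-fold at 48 h, and in 21 the larger part of the log2 change came after 48 h. The lists not described one by one, among them heat shock, heme synthesis, p53 targets, lysosome, S100 proteins and NADPH oxidase, had medians between -0.22 and 0.32, and 8 genes of the 2-cell embryo had no UMI.

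Most genes of the progenitor state were slightly lower. Among transcription factors Cebpe, Gfi1 and Spi1 were higher and Irf8 lower. All these changes were under 2-fold on the log2(CPM + 10) scale. Over 9 progenitor genes the median log2 ratio was -0.15, with 8 below 0, 7 below the median gene and 0 lower by 2-fold. Across the processing alternatives that median ran from -0.54 to -0.08. Cd34 was at 756, 738 and 707 CPM. Kit, the receptor for stem cell factor, was at 82.8, 73.9 and 55.6 CPM and the receptor Flt3 at 99.4, 99.5 and 63 CPM. Meis1, a partner of HOXA9, was at 45.6, 31.3 and 16.7 CPM, 1.88-fold (1.45 to 2.45) lower. Transcripts counted for Hoxa9, in which the gene and the fusion were not told apart, were at 24.7, 24.2 and 23.4 CPM. Among myeloid transcription factors Cebpe, which drives late granule genes, was at 67.4, 510.1 and 785 CPM, Gfi1, a repressor needed for neutrophils, at 27.8, 86.2 and 146 CPM, and Spi1, or PU.1, at 166, 230.1 and 323 CPM. Cebpa was at 51.7, 66.9 and 68.2 CPM. Irf8, a monocyte factor, was at 23.3, 20.8 and 10.2 CPM, and Ccr2, a chemokine receptor of monocytes, was lower at each time at 501, 309 and 201 CPM. Most monocyte genes did not fall with them. Of the list of 10, 7 had a log2 ratio above 0, 1 was at least 2-fold higher and 1 at least 1.5-fold lower. The median was 0.06. Markers of monocytes summed to 753 and 668 CPM and those of erythroid cells to 14.5 and 26.7 CPM at 48 and 96 h, and Gata1, which directs both red cells and megakaryocytes, was at 1.19, 4.47 and 12.4 CPM.

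Summed values hide how a gene is spread over cells, so each kept cell was thinned to 1300 UMIs, which left out 20 shallower cells at 48 h and 9 at 96 h. Pf4 had a UMI in 32.2% (29.2 to 35.3) of 907 cells at 48 h and 82.2% (79.5 to 84.6) of 902 at 96 h, with exact 95% binomial limits in brackets. Without thinning the shares were 57.7% and 95.7%. Pf4 was thus found in most cells of the 96 h culture. Ms4a3 went from 30% to 67.6% of cells, Mcpt8 from 30% to 69.2%, Cpa3 from 56.4% to 84.1% and Ifitm1 from 59.4% to 92.1%. Among the falls, Igll1 went from 51% to 24.2%, Gm26917 from 28.4% to 9.53% and Sdc1 from 20.6% to 9.65%. The culture held no cell type known to lack these genes, so the share of cells that free RNA would give was not measured.

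**Figure D4:**
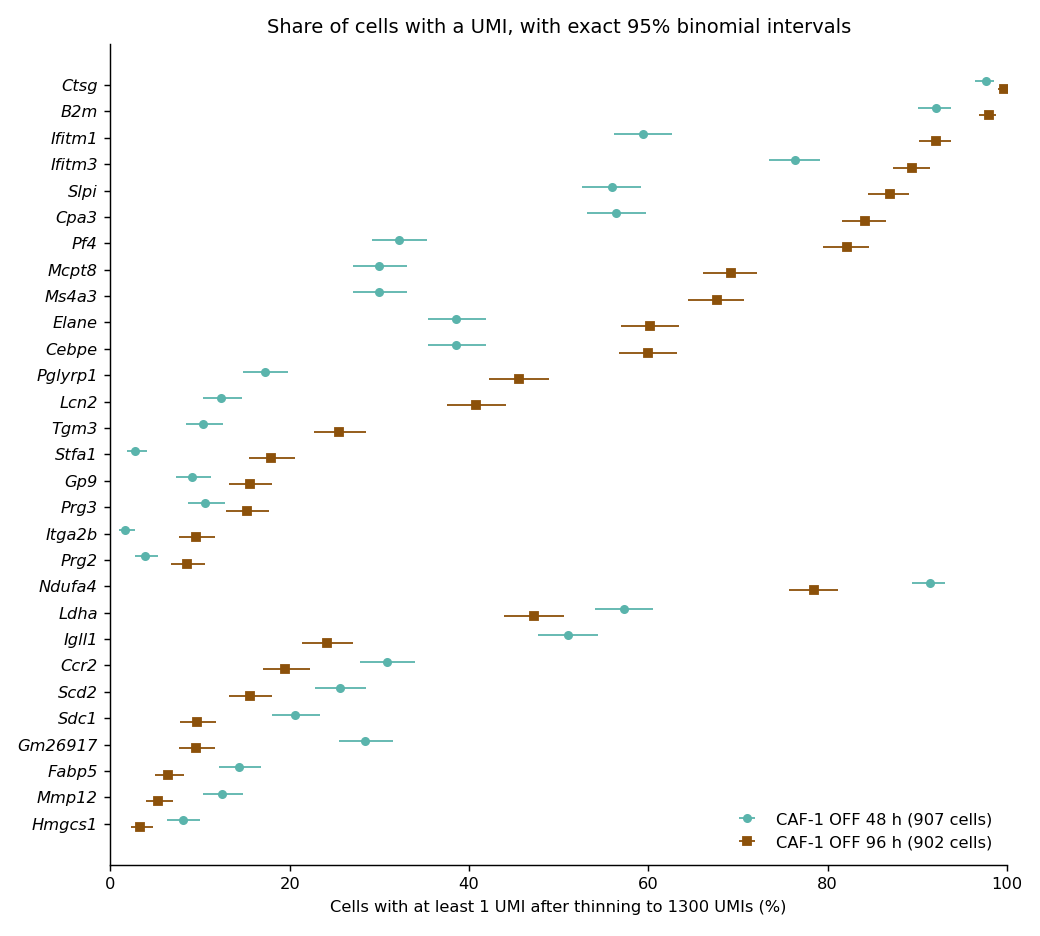
Percent of cells with at least 1 UMI of each gene after thinning to 1300 UMIs, at 48 h (907 cells, circles) and 96 h (902 cells, squares) of CAF-1 OFF; bars are exact 95% binomial intervals. From Ctsg down to Prg2 the squares lie to the right, with Pf4 moving from 32.2% to 82.2%, and from Ndufa4 down to Hmgcs1 they lie to the left.

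A few genes were instead held by a small share of cells. Prg2 had a UMI in only 8.54% (6.8 to 10.6) of cells at 96 h, and the richest 5% of cells carried 97% of its thinned UMIs, with 26 cells at 10 UMIs or more and 225 in the highest. At 48 h, 9 cells had 10 or more. Its variance over cells was 80.3 times its mean at 96 h, where counting alone gives 1. For Pf4 that ratio was 2.95 and the richest 5% of cells held 18.3% of the UMIs. Stfa1 lay between, in 18% of cells with 57.8% in the richest 5%. The summed fold of Prg2 therefore rests on few cells, and its interval, which counts UMIs only, does not cover that.

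Genes of different lineages were found in the same cells, and the shares differed in direction between Pf4 and Cpa3. At 96 h, 64% of the 741 cells with a Pf4 UMI also had one of Elane, against 42.9% of the 161 without. For Mcpt8 the shares were 73.7% and 48.4%, and for Ms4a3 70.4% and 54.7%. At 48 h the Elane shares were 63.7% and 26.7%. Stfa1 marked cells rich in neutrophil genes: 90.7% of the 162 cells with a Stfa1 UMI had Ms4a3 against 62.6% of the rest, and 70.4% against 40.1% had Pglyrp1. Cpa3 ran the other way with neutrophil genes. Of the 759 cells with a Cpa3 UMI, 57.4% had Elane against 74.8% of the 143 without, with 65.3% against 79.7% for Ms4a3, 43.1% against 58.7% for Pglyrp1 and 15% against 33.6% for Stfa1. Cells with a UMI of Igll1, which falls late, had Ms4a3 in 54.6% against 71.8%. Scrublet, a doublet caller, marked 9 of the 911 cells at 96 h and 44 of the 927 at 48 h. The points share library and thinned depth, and these shares are a description of single cells of 1 culture.

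The drop in DNA replication genes was uneven over cells. After thinning, the mean per cell was 5.1, 5.05 and 3.93 UMIs of the list at 0, 48 and 96 h, while its 90th percentile was 9 UMIs at every time. Cells with 0 UMIs of the list made up 2.53%, 3.31% and 13.5%, the last 122 of 902 cells with exact 95% limits of 11.4 to 15.9%. The ratio of variance to mean rose from 1.89 to 2.66. The class of 0 UMIs is the end of a range and not a cell type, and a further 140 cells held 1 UMI at 96 h. The G2/M list had a mean of 3.22 UMIs in those at 0, 4.34 in those with 2 or 3 and 2.72 in the 440 cells with 4 or more. The share of cells with a G2/M UMI was 79.5% at 0 and 85.5% at 4 or more, so mean and share ran in opposite directions. The median depth of the cells at 0 before thinning was 4763 UMIs, against 6284 at 4 or more. Pf4 stood at 2928 CPM in the cells at 0 and 2070.2 CPM in those with 4 or more, and Lcn2 at 593 and 354 CPM. At 48 h, Pf4 was at 776 CPM in the 30 cells at 0 and 331 CPM in those with 4 or more. The part of cell depth in these differences was not tested.

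**Figure D5:**
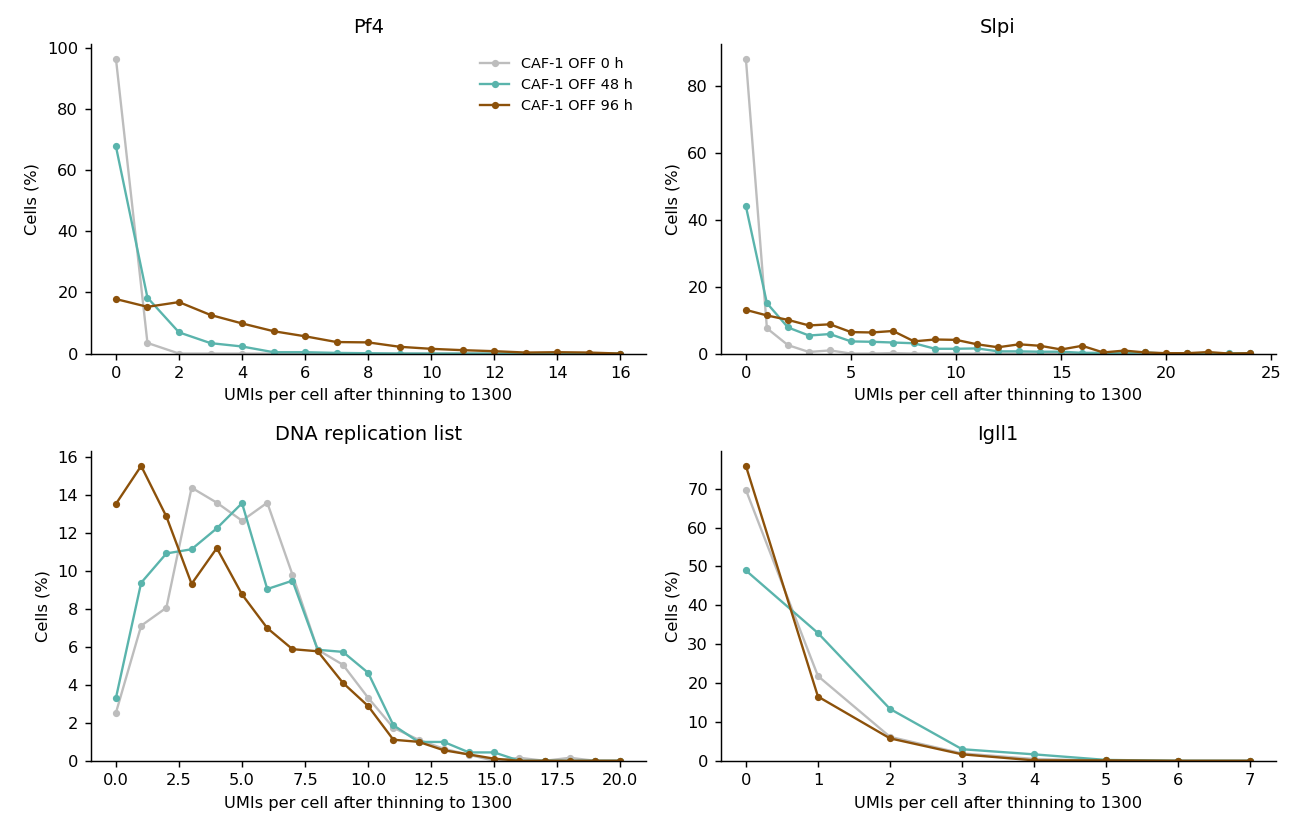
Percent of cells by UMIs per cell after thinning to 1300 UMIs, for Pf4, Slpi, the sum of the DNA replication list and Igll1, in CAF-1 OFF at 0 (grey), 48 (green) and 96 h (brown). Cells with a Pf4 UMI go from 32.2% at 48 h to 82.2% at 96 h, and the replication list gains cells at 0 to 2 UMIs and loses them at 5 to 7.

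In the promoters of the late genes, AGATAA was in 11 of the 32 genes at least 2-fold higher that have a window, 34.4%, against 7.14% of the 3696 tested genes with one, and in 12.6% of those at least 1.5-fold higher. The ETS letters CGGAAGT were in 2 of those 32 (6.25%), against 19.4% of tested genes and 7.2% of all 27025 genes with a window. Among the genes at least 1.5-fold lower, CCAAT was in 58.9% against 44.2%, and all 9 cholesterol synthesis genes with a window held it, Hmgcs1 with 3 matches in the stretch printed above. The sterol letters were in 1 of those 9, Hmgcs1 itself. CACGTG was in 15.6% of the higher genes against 13.1% of tested genes, and the E2F letters TTGGCGC in 3.12% against 6.49%. Over all 27025 genes with a window these letters were in 8.09% and 2.85%.

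Set beside the same 48 h of HOXA9 withdrawal, the late step after CAF-1 loss held fewer changes of 2-fold. In HOXA9 OFF, 436 of 4319 genes (10.1%) were higher by 2-fold or more at 96 h than at 48 h and 650 (15%) lower. Pf4 was at 2.07 and 5.11 CPM there, and Cpa3 at 384 and 10.2 CPM. Stfa1, by contrast, was at 5353 and 21162 CPM, far over its level in CAF-1 OFF at either time. The primary granule list had a median log2 ratio of -3.91 in HOXA9 OFF against 0.46 in CAF-1 OFF, and the DNA replication list -1.74 against -0.35. The median of the 4771 genes was -0.36 in HOXA9 OFF and -0.07 in CAF-1 OFF. These libraries differ in clone, hairpin and depth, with a median of 2044 UMIs a cell in HOXA9 OFF at 96 h, and the difference was not tested.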

How the data were processed

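Live iGMPs sorted at 0, 48 and 96 h were profiled with the 10x Chromium 3′ kit, version 2, 1 library per arm and time. The deposited table holds raw UMI counts for 7821 barcodes and 27998 genes, which the authors made with Cell Ranger (3.0.1 in the submitters' processing notes) on mm10 without normalization. Every column was used, and barcodes were assigned to libraries by their endings as given in the labels. Reads from near-identical genes cannot be split with certainty by such counting.

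Barcodes with 200 to 6000 genes and at most 10% mitochondrial UMIs were kept, with no doublets removed, and their UMIs were summed per library and scaled to CPM. Ratios were taken as log2(CPM + 10). Fold and share intervals are exact (Clopper-Pearson) 95% binomial intervals and those of CPM exact Poisson intervals. All cover counting error only, and no test was made between single libraries. The scripts were tested on simulated data. Python 3.11.15, scipy 1.17.1, scanpy 1.11.5 with its Scrublet and edgeR 4.0.16 (for TMM factors only) were used. Gene positions and promoters are those of RefSeq on GRCm38.p6, with a promoter window matched by symbol for 3696 of the 4771 measured genes.

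The genes named were, at 50 CPM or more at 48 or 96 h, the 12 largest rises and falls, up to 8 a course (only after 48 h, or up and then down), and up to 6 a gene list with the largest ratios, together with members at 0 UMIs. Other list members named for their role were chosen after their values were seen. The cells, gene lists and questions were chosen with earlier results of these data known. A few list members are not reported here. Alternatives covered the pseudocount, size, minimum level, scaling, cell filters, doublets and thinning.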

Additional observations from a re-analysis of the deposited data

Results flagged for a closer look

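For 7 of the 106 named genes the step from 48 to 96 h ran in opposite directions in the arms of the study, by at least 2-fold in each. Changes of this size were common in HOXA9 OFF, where 10.1% of 4319 genes were higher and 15% lower. The 7 are therefore listed gene by gene, and their number is not read as a result. Each direction rests on 1 library a time point and the difference was not tested. Of the genes that were higher in CAF-1 OFF, the log2 ratio in HOXA9 OFF was -1.33 for Itga2b against 1.80 in CAF-1 OFF. It was -5.29 against 1.78 for Ms4a3 and -2.46 against 1.67 for Prg2. Mcpt8 stood at -1.46 against 1.61, and Cpa3 at -4.29 against 1.43. Of the genes that were lower in CAF-1 OFF, Dgat2 had 1.67 in HOXA9 OFF against -1.13, and Fabp5 2.37 against -1.19. Ms4a3 went from 934 to 14.2 CPM in HOXA9 OFF and Fabp5 from 19 to 140.5 CPM.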

How the results depend on the processing

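The counts of genes at least 2-fold higher, at least 2-fold lower, falling only after 48 h and rising only after 48 h, which were 41, 8, 4 and 5, depend on where the size is set, and with 1 library a time point no setting adds a test. In that order they were 66, 13, 8 and 9 with a pseudocount of 1 CPM, 16, 2, 1 and 0 with 50 CPM, 162, 74, 66 and 48 at 1.5-fold and 2, 0, 0 and 0 at 4-fold. With at most 5% mitochondrial UMIs, which left 262 cells at 48 h and 165 at 96 h, they were 65, 23, 17 and 16, and with a minimum mean of 50 CPM 23, 5, 3 and 2. Genes falling only after 48 h were 7 with mitochondrial and ribosomal protein genes left out of the total and 7 with cells weighted equally. Genes rising only after 48 h were 2 with the minimum taken over all 6 libraries, 10 with no minimum, 3 without cells called by Scrublet and 3 with cells weighted equally. TMM scaling gave 51 genes higher and 7 lower, among them all 41 and 7 of the 8, and median-of-ratios scaling 52 and 6; these moved the median gene from -0.07 to -0.01 and 0.01. Over 106 named genes and 11 alternatives, 9 of 1166 log2 ratios had another sign, in Fli1, Cebpa, Top2a, Hoxa9, Hba-a1 and Cd34, whose ratios lay between -0.06 and 0.17, and 144 moved by more than counting error. With at most 5% mitochondrial UMIs, Prg2 was at 2.89 in place of 1.67, Prg3 at 1.78 in place of 0.90, Mmp12 at -2.03 in place of -1.08 and Dgat2, no longer past 2-fold, at -0.53 in place of -1.13. Of 517 list medians, 88 moved by more than the standard error over members and 20 changed sign, those of G2/M genes, histone variants and the mitochondrial genome among them. For shares of cells, 27 of 424 differences had another sign. Among differences that had exceeded counting error, it turned without thinning for H1fx (-1.82 percentage points) and H3f3b (0.216), for H3f3b also at 2600 UMIs (0.223), and at 2 UMIs or more for Cbx5 (0.113), Sox4 (0.00306), Flt3 (0.00489) and Sms (0.113). Beyond what a setting itself removes or adds, the cause was not tested.

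No paired analysis was possible because each time point had 1 library. Leaving out a replicate was not possible for the same reason. Depth limits what 0 UMIs in the 96 h library can show to levels above 0.556 CPM. The spread between cultures, clones and days was not measured.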

Other observations

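Genes that were higher at 96 h than at 48 h were often next to each other in the order of measured genes. This pattern was looked for after the values were seen. Of the 41 genes higher by 2-fold or more, 40 could be placed on GRCm38.p6 by their RefSeq symbol, and 11 of them had another of the set as the next measured gene on the chromosome. Of 80 such next genes, 12 (15%) were in the set, against 0.879% of the 4551 measured genes that were placed. Each pair was counted from both ends. At 1.5-fold the shares were 16.1% and 3.43%. No limit was set on distance, and some of the 1.5-fold pairs lay far apart, such as Igf1r and Slco3a1 at 6041.75 kb. Genes at least 1.5-fold lower did not show it, with 1.43% against 1.56%.

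Some of these neighbours are relatives. Pf4 and the chemokine gene Cxcl3 lay 12.7 kb apart on chromosome 5, and Ifitm1 and Ifitm3 39.8 kb apart on chromosome 7. Raet1e and Raet1d, ligands of a natural killer cell receptor, lay on either side of Gm26740 on chromosome 10. The annotated spans of Raet1e and Gm26740 overlap. Where relatives are near-identical in sequence, they can share reads. Others belong to different families: Ms4a3 and the oocyte gene Oosp1 lay 26.6 kb apart on chromosome 19, and Cd200r4, of the CD200 receptor family, and Ccdc80 254 kb apart on chromosome 16. At the 1.5-fold size, Itga2b had Grn, the progranulin gene, 16.5 kb away on chromosome 11, and Ifih1, a sensor of viral RNA, had Gca, a grancalcin, 18.1 kb away on chromosome 2. Reads that run on from one gene into the next were not looked for.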
